A study of Drosophila melanogaster with 18 samples.

Results

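Transcripts of 9 genes that neurons use to build and run their synapses were followed in whole larvae of the fruit fly Drosophila melanogaster. The genes were taken by name for their roles in neurons, with earlier results of these data known: brp, Rim, unc-13, cac, Syt1, nSyb, Syx1A, elav and futsch. All 9 were among the 12301 genes of the deposited expression table, and all 9 passed the filter on low values that left 11557 genes for testing (at least 1 FPKM in at least 3 libraries). FPKM is the number of sequenced fragments per kilobase of gene length scaled to the fragments assigned to genes in the library, so levels of different genes can be set side by side. Each of the 9 genes was covered by 818 to 16863 reads per library.

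Larvae of 3 genotypes were compared, with 3 replicates of 40 whole 3rd-instar larvae each. The labels do not say whether the replicates were grown apart, so p-values measure the spread between these libraries. All carried a driver that the labels write as Dats-GAL4, described in the protocol as da-GAL4 with tub-GAL80ts. The daughterless (da) promoter is active in cells of the whole body, neurons included but not singled out, and the temperature-sensitive GAL80 keeps GAL4 silent in the cold. The control was Dats-GAL4/+. The second genotype was Dats-GAL4 > UAS-NAT10-RNAi, directed at NAT10, the acetyltransferase that writes the RNA modification N4-acetylcytidine (ac4C). In the last, Dats-GAL4 > UAS-NAT10-RNAi Xrp1-RNAi, a construct against Xrp1, a stress-induced transcription factor, was added. Per the protocol, embryos from a 24 h collection at 18 °C grew to first-instar larvae before the shift to 30 °C. Control larvae were taken 72 h later. Larvae with NAT10 RNAi, which grew slowly, were taken at 120 h, so genotype and time at harvest cannot be told apart in that comparison. For the genotype carrying both constructs no harvest time is stated. From each replicate, fragmented polyadenylated RNA gave an input library and a library captured with an ac4C antibody (IP).

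At a chemical synapse, calcium enters the nerve ending through voltage-gated channels that sit in a protein scaffold, the active zone. Vesicles docked and primed there fuse with the cell membrane when the calcium sensor synaptotagmin and the SNARE proteins synaptobrevin, syntaxin and SNAP-25 act together. In Drosophila the scaffold is organised by Bruchpilot, and at the larval nerve-muscle junction its loss leaves synapses without the dense projections that gather calcium channels. Whole larvae hold the nervous system as a small share of their RNA beside muscle, fat body, gut and epidermis. In such bulk RNA, fewer neurons and less RNA per neuron cannot be told apart.

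Input libraries held 15518179 to 24272099 reads in genes. The NAT10 transcript (l(1)G0020) was not called lower in either RNAi genotype (log2 fold change against control 0.10 with NAT10 RNAi, -0.07 after rescaling, neither called), and it was called higher with both constructs (0.20, limma adjusted p = 0.0250, and 0.0338 after rescaling). It stood at 4.97 to 5.46 FPKM in control, between 5.22 and 5.93 with NAT10 RNAi, and between 6.02 and 6.18 in the doubly targeted larvae, which leaves the NAT10 label unchecked by its transcript. Xrp1 stood at 211 ± 2.82 FPKM in control, 385.5 ± 0.925 with NAT10 RNAi and 41.7 ± 1.85 with both constructs (SD, n = 3), the last in the direction of the label. Replicate 1 with both constructs stood apart from its fellows in a chi-square comparison over genes (8.15 and 11.6 per degree of freedom, against 1.41 to 3.95 for every other pair), and leaving it out changed no call among the 9 genes. With NAT10 RNAi most genes shifted upwards a little: the median log2 fold change over all genes tested was 0.17 against control and -0.16 between both constructs and NAT10 RNAi. Rescaling every library by its median ratio brought these medians to 0.01 and 0.00. Upward calls then made up 50.3% instead of 71.4% of all calls against control, and 50.6% instead of 24.8% between the RNAi genotypes. Fold changes of the 9 genes are therefore given on both scales, and those of other genes on the second where it moved them by over 1.5 times or changed a call. Fold changes are from limma on log2(FPKM + 1), with p-values adjusted by Benjamini-Hochberg over all genes tested, and a gene was called at an adjusted p under 0.05.

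With NAT10 RNAi, 5 of the 9 genes were higher than in control (brp, unc-13, cac, Syt1 and Syx1A), elav was lower, and Rim, nSyb and futsch did not pass the test. This is close to the background: of all genes tested 66.2% were called, 47.3% higher and 18.9% lower. The median log2 fold change of the 9 was 0.22, and 0.02 after rescaling, when 3 were called higher, 2 lower and 4 not at all, beside 63.5% of all genes called (31.9% higher and 31.5% lower). With both constructs against control, where 40.8% of all genes were called (21.5% higher and 19.2% lower), futsch was higher, brp, unc-13 and elav were lower, and the other 5 did not pass. The median was -0.08 on either scale, and rescaling gave the same counts for the 9, beside 41.8% of all genes called. Between both constructs and NAT10 RNAi, where 61.4% of all genes were called (15.2% higher and 46.1% lower), brp, unc-13, cac, Syt1 and Syx1A were lower and none of the 9 was higher. After rescaling, with 55.7% of all genes called (28.2% higher and 27.6% lower), 2 were higher (elav and futsch) and 4 lower, and Syx1A was no longer called. The 3 comparisons share libraries, so they are not independent of each other.

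**Figure D1:**
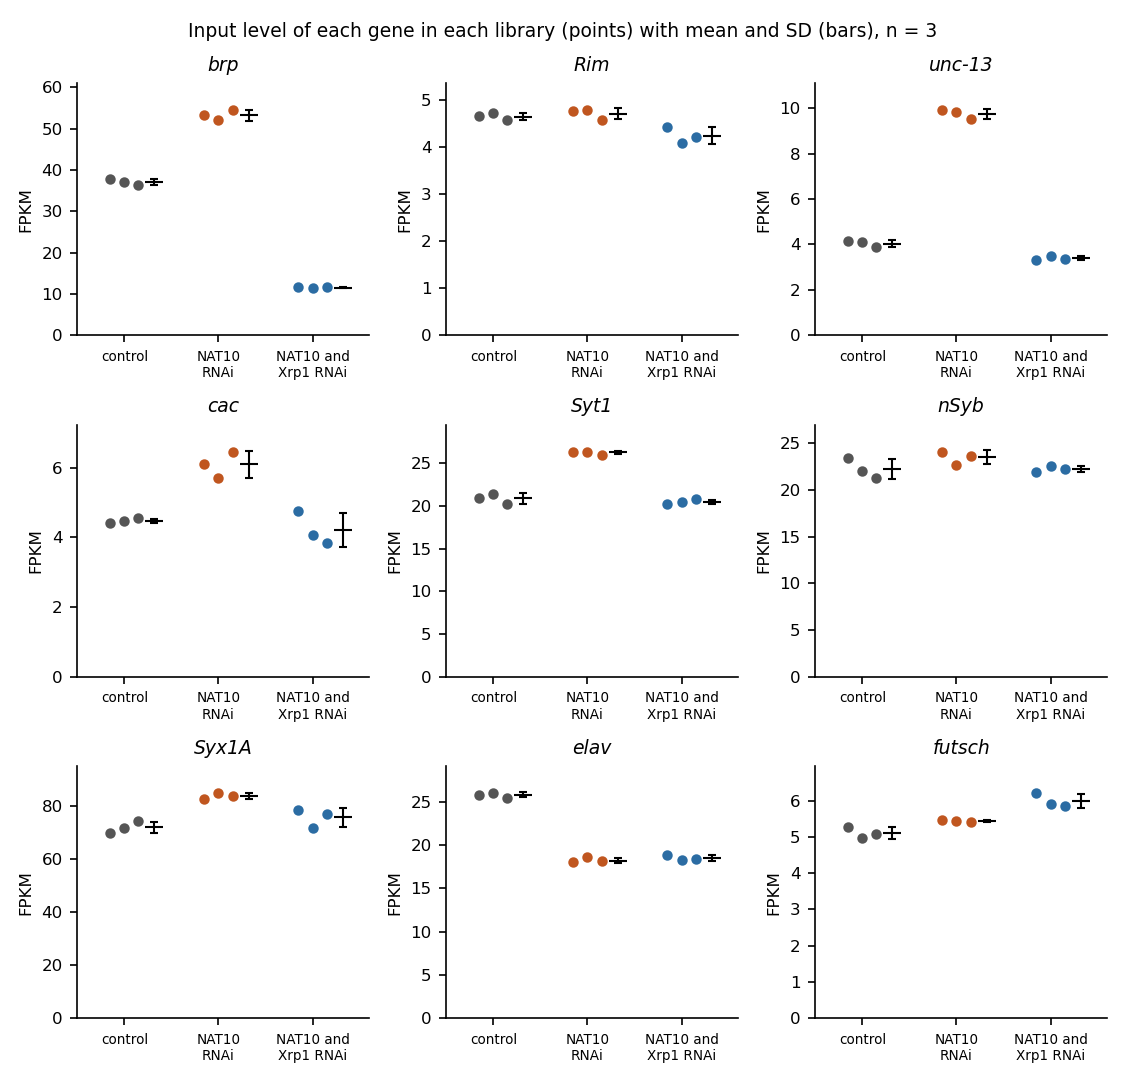
Input level (FPKM, vertical axis starting at 0) of each of the 9 genes in every library. Points are the 3 replicates of each genotype, and the bar beside them is the mean with its SD; brp falls from about 37.1 FPKM in control to 11.5 with both constructs, and unc-13 is high only in the NAT10 RNAi libraries, at 9.51 to 9.92.

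The scaffold gene brp (bruchpilot, FBgn0259246, 2R:9503765-9541565 in BDGP6, plus strand) changed furthest of the 9 with both constructs. Control libraries held 37.8, 37.1 and 36.4 FPKM of it, those with NAT10 RNAi 53.2, 52.0 and 54.5, and those with both constructs 11.6, 11.4 and 11.7. No group overlapped another, and the order was NAT10 RNAi above control above both constructs. Against control, brp was 1.43-fold higher with NAT10 RNAi (log2 fold change 0.51 ± 0.03 SE, limma adjusted p = 3.18e-07; 0.31 after rescaling). With both constructs it was 3.21-fold lower than in control (log2 fold change -1.60 ± 0.03, limma adjusted p = 2.21e-10; -1.61 after rescaling) and 4.61-fold lower than with NAT10 RNAi alone (-2.11 ± 0.03, limma adjusted p = 1.54e-11; -1.93 after rescaling). Only 0.658% of all genes tested changed by more than brp against control, and 0.640% between the RNAi genotypes. In the authors' deposited table of genes changed with both constructs, which lists 346 genes, brp was the single one of the 9, at a log2 fold change of -1.69 (FDR 6.04e-21). The smallest log2 fold change in that table was 1.0 in size and the largest FDR 0.00939, so genes with smaller changes are absent from it.

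Rim (FBgn0053547, 3R:17872748-17916578, minus strand), whose product links calcium channels and vesicles at the active zone, did not pass the limma test in any comparison on either scale, but did under some other fits. Its level was 4.67, 4.72 and 4.57 FPKM in control, 4.77, 4.79 and 4.57 with NAT10 RNAi, and 4.43, 4.08 and 4.22 with both constructs. The first 2 groups overlapped, and the libraries with both constructs lay below them. The log2 fold changes were 0.01 ± 0.06 with NAT10 RNAi (limma adjusted p = 0.840; -0.15 after rescaling, limma adjusted p = 0.0517), -0.11 ± 0.06 with both constructs against control (limma adjusted p = 0.146; -0.11 after rescaling) and -0.12 ± 0.06 between the RNAi genotypes (limma adjusted p = 0.0795; 0.04 after rescaling). On recovered reads, with NAT10 RNAi against control, edgeR with TMM and DESeq2 called Rim lower (-0.17, adjusted p = 0.00299, and -0.18, adjusted p = 0.00619). Between the RNAi genotypes it was called lower by limma without trend and robust (adjusted p = 0.0324) and by edgeR without TMM (adjusted p = 0.00575).

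The vesicle priming gene unc-13 (FBgn0025726, 4:867824-912331, minus strand) rose furthest of the 9 with NAT10 RNAi. Control libraries were at 4.14, 4.11 and 3.89 FPKM, those with NAT10 RNAi at 9.92, 9.83 and 9.51, and those with both constructs at 3.33, 3.5 and 3.36. NAT10 RNAi thus stood far above the rest, and both constructs stood a little below control without overlap. The gene was 2.41-fold higher with NAT10 RNAi than in control (log2 fold change 1.09 ± 0.05, limma adjusted p = 3.00e-08; 0.92 after rescaling), a size exceeded by 6.07% of all genes tested. With both constructs it fell by 0.20 ± 0.05 on the log2 scale against control (limma adjusted p = 0.0132; -0.20 after rescaling), and it was 2.87-fold lower than with NAT10 RNAi alone (-1.29 ± 0.05, limma adjusted p = 1.63e-08; -1.12 after rescaling). It was the single one of the 9 in the authors' deposited table of genes changed with NAT10 RNAi, at a log2 fold change of 1.08 (FDR 5.79e-30). That table lists 1261 genes, beside 12301 in the expression table. Its smallest log2 fold change was 1.0 in size and its largest FDR 0.00807. Absence from it thus does not mean that a gene was unchanged.

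The exons of unc-13 share bases with 3 noncoding genes on the opposite strand: 1463 with the pseudogene CR43361, 3528 with asRNA:CR43425 and 705 with asRNA:CR44029. All 3 were also higher with NAT10 RNAi, CR43361 going from a mean of 3.18 to 9.36 FPKM (log2 fold change 1.32, limma adjusted p = 2.83e-07). The strand setting of the counting is not given in the sources used here, so reads of unc-13 and of these genes may have been counted for each other, and their part in the change of unc-13 was not tested.

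The gene cac (cacophony, FBgn0263111, X:11931280-11985087, minus strand) encodes the pore subunit of the presynaptic calcium channel. It stood at 4.42, 4.47 and 4.54 FPKM in control, 6.09, 5.70 and 6.46 with NAT10 RNAi, and 4.75, 4.06 and 3.83 with both constructs. The NAT10 RNAi libraries were the highest, without overlap, while those with both constructs spread on either side of control and replicate 1 was the high one. The gene was 1.36-fold higher with NAT10 RNAi than in control (log2 fold change 0.37 ± 0.07, limma adjusted p = 0.00125), and that call was lost after rescaling (0.20, limma adjusted p = 0.0559). Both constructs gave -0.08 ± 0.07 against control (limma adjusted p = 0.455; -0.08 after rescaling) and -0.45 ± 0.07 against NAT10 RNAi (limma adjusted p = 0.000451; -0.28 after rescaling).

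Syt1 (FBgn0004242, 2L:2772327-2799979, minus strand), the calcium sensor of fast vesicle release, was at 21.0, 21.4 and 20.2 FPKM in control, 26.4, 26.3 and 26.0 with NAT10 RNAi, and 20.3, 20.5 and 20.8 with both constructs. Only the NAT10 RNAi libraries stood apart. Syt1 rose by 0.32 ± 0.04 on the log2 scale with NAT10 RNAi (limma adjusted p = 1.63e-05; 0.13 after rescaling, still called) and was lower by a similar size with both constructs than with NAT10 RNAi alone (-0.34 ± 0.04, limma adjusted p = 1.37e-05; -0.16 after rescaling). Against control, both constructs gave -0.02 ± 0.04 (limma adjusted p = 0.644; -0.03 after rescaling).

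The SNARE genes nSyb and Syx1A moved less than Syt1 with NAT10 RNAi. Their SNARE partner gene Snap25, given below with the vesicle genes, rose by 0.88 on the log2 scale there. The vesicle SNARE nSyb (neuronal synaptobrevin, FBgn0013342, 3L:1630348-1637752, minus strand) stood at 23.4, 22.0 and 21.3 FPKM in control, 24.1, 22.7 and 23.6 with NAT10 RNAi, and 21.9, 22.5 and 22.2 with both constructs. Control overlapped both RNAi groups. Its log2 fold change with NAT10 RNAi was 0.08 ± 0.04 (limma adjusted p = 0.142), and after rescaling it had the other sign and passed the test (-0.12, limma adjusted p = 0.0374). Leaving out control replicate 1 also gave a call, but in the upward direction (0.11, limma adjusted p = 0.0455). With both constructs nSyb gave 0.00 ± 0.04 against control (limma adjusted p = 0.988; -0.01 after rescaling) and -0.08 ± 0.04 against NAT10 RNAi (limma adjusted p = 0.143; 0.11 after rescaling, not called).

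The membrane SNARE Syx1A (syntaxin 1A, FBgn0013343, 3R:24101600-24105763, minus strand) was the most abundant of the 9 in every genotype. Its libraries read 69.9, 71.9 and 74.2 FPKM in control, 82.8, 84.9 and 83.6 with NAT10 RNAi, and 78.4, 71.6 and 77.1 with both constructs. The NAT10 RNAi libraries were above all others, and control and both constructs overlapped. The rise with NAT10 RNAi was 0.22 ± 0.04 on the log2 scale (limma adjusted p = 0.000772), and the call was lost after rescaling (0.02, limma adjusted p = 0.773). Both constructs gave 0.07 ± 0.04 against control (limma adjusted p = 0.190; 0.06 after rescaling), which became a call when replicate 2 with both constructs was left out (0.11, limma adjusted p = 0.0446). Against NAT10 RNAi they gave -0.15 ± 0.04 (limma adjusted p = 0.00969), which after rescaling had the other sign and was not called (0.05, limma adjusted p = 0.492). Of its exon bases 447 are shared with eIF4EHP on the same strand, which stood at means of 35.4, 34.2 and 33.9 FPKM in the 3 genotypes.

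The gene elav (embryonic lethal abnormal vision, FBgn0260400, X:509235-523226, minus strand) encodes the RNA-binding protein that marks neurons in Drosophila and sets neuron-specific splicing and 3' end choice. It was the single one of the 9 that was lower in both RNAi genotypes by about the same amount. It was at 25.8, 26.0 and 25.4 FPKM in control, 18.0, 18.6 and 18.1 with NAT10 RNAi, and 18.8, 18.3 and 18.4 with both constructs. The RNAi groups overlapped each other and lay well below control. The gene fell by 0.48 ± 0.03 on the log2 scale with NAT10 RNAi (limma adjusted p = 5.74e-07; -0.67 after rescaling) and by 0.46 ± 0.03 with both constructs (limma adjusted p = 3.55e-06; -0.47 after rescaling). The difference between the RNAi genotypes was 0.02 ± 0.03 (limma adjusted p = 0.649), and 0.20 after rescaling, which was called (limma adjusted p = 0.00178).

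Part of the elav locus is shared with other genes. The noncoding gene lncRNA:enrr on the same strand holds 2994 of its exon bases and went the same way, from a mean of 57.2 FPKM in control to 41.0 and 43.1 in the RNAi genotypes. On the opposite strand arg, an arginase gene, shares 673 bases and went the other way, from 0.739 to 8.80 and 2.02 FPKM. How reads were divided among these genes was not tested.

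The gene futsch (FBgn0259108, X:1409069-1453686, plus strand) encodes a large microtubule-binding protein of axons and nerve endings. It stood at 5.27, 4.96 and 5.08 FPKM in control, 5.47, 5.45 and 5.42 with NAT10 RNAi, and 6.21, 5.92 and 5.85 with both constructs. The groups did not overlap, with control lowest and both constructs highest, and the step to NAT10 RNAi was small. It did not pass the test with NAT10 RNAi (log2 fold change 0.08 ± 0.05, limma adjusted p = 0.205; -0.09 after rescaling). With both constructs it rose by 0.20 ± 0.05 against control (limma adjusted p = 0.0124; 0.19 after rescaling). Between the RNAi genotypes the log2 fold change was 0.12 ± 0.05 (limma adjusted p = 0.0720), and 0.28 after rescaling, which was called (limma adjusted p = 0.00176).

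**Figure D2:**
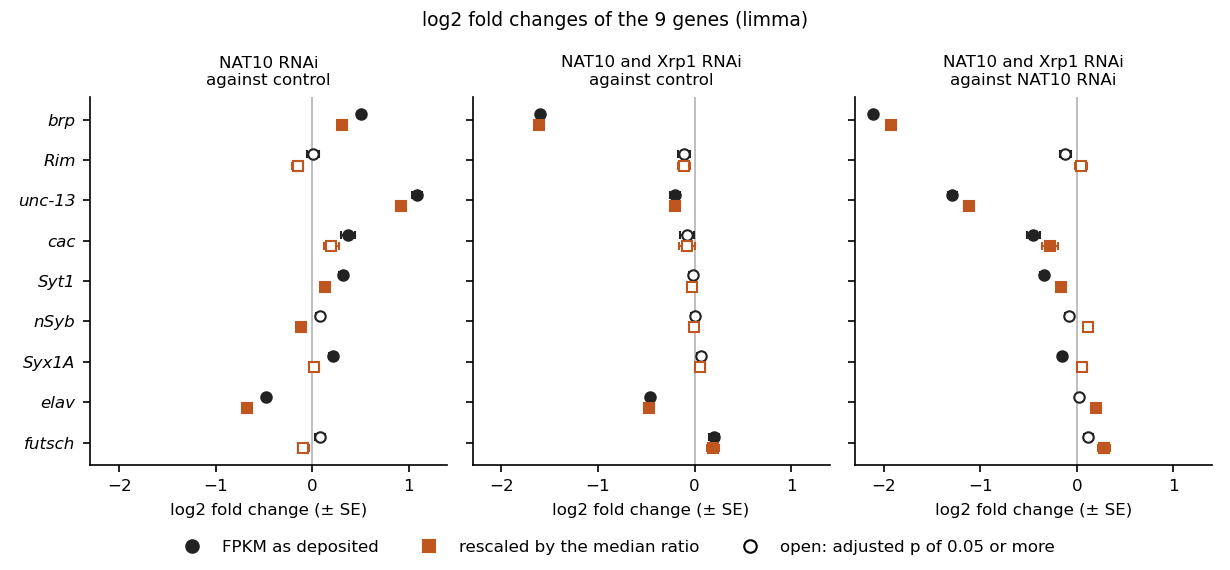
log2 fold change with its SE (horizontal axis) of the 9 genes in the 3 comparisons, from FPKM as deposited (black circles) and after rescaling (orange squares); filled symbols have an adjusted p under 0.05. brp at -1.60 and -2.11 and unc-13 at 1.09 lie far from 0 on both scales, whereas Rim, cac, nSyb, Syx1A, elav and futsch change sign or call between the scales in at least 1 comparison.

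Ratios between genes within a library do not depend on how libraries are scaled. The ratio of brp to nSyb was 1.67 ± 0.049 in control, 2.27 ± 0.058 with NAT10 RNAi and 0.520 ± 0.013 with both constructs (SD, n = 3). That of unc-13 to nSyb went from 0.182 ± 0.0049 to 0.416 ± 0.015 and 0.153 ± 0.0019. For elav the ratio went from 1.16 ± 0.049 to 0.777 ± 0.036 and 0.832 ± 0.025. For these 3 genes control did not overlap either RNAi group. By contrast the ratio of Rim to nSyb was 0.210 ± 0.0089, 0.201 ± 0.0090 and 0.191 ± 0.011, with overlap between control and both RNAi groups. The ratios of the 9 genes thus moved by unequal amounts.

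By level per length the order in control was Syx1A, brp, elav, nSyb, Syt1, futsch, Rim, cac and unc-13. Of neighbours in this order only nSyb and Syt1 overlapped across replicates (21.3 to 23.4 and 20.2 to 21.4 FPKM). With NAT10 RNAi no neighbours overlapped, and unc-13 moved from last place to one just below elav, at a mean of 9.75 FPKM, ahead of cac at 6.09. With both constructs brp moved to just below elav, at a mean of 11.5 beside 18.5 FPKM, and only Rim and cac overlapped (4.08 to 4.43 and 3.83 to 4.75 FPKM).

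Across the 9 input libraries, log2 levels of unc-13 and Syt1 had a Pearson correlation of 0.99 and those of unc-13 and cac 0.93, brp and Rim stood at 0.88, and brp and futsch at -0.76. These are descriptions over 3 groups of 3 libraries, so they mostly restate the differences between genotypes. Of 11309 tested genes with a mean of at least 1 FPKM, the 5 outside the 9 whose levels most resembled the mean standardised profile of the 9 were hdc, lobo, Nckx30C, Tim17a1 and XRCC1, with correlations of 0.986 to 0.990. The closest, hdc, went from a mean of 68.6 FPKM in control to 89 and 62.3, and Nckx30C, a sodium, calcium and potassium exchanger gene, from 6.61 to 11.1 and 5.28. Among the 9 themselves unc-13 was nearest to that profile, at 0.97, while elav and futsch were at -0.27 and -0.30.

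Other genes of the synapse were read from lists of named genes, given here by counts over all tested members. Of 13 active zone and calcium channel partners 4 rose and 2 fell with NAT10 RNAi, with a median log2 fold change of 0.05 (-0.12 after rescaling, when 2 rose and 7 fell). Mctp, a calcium-binding membrane protein gene, rose from a mean of 1.64 to 3.27 FPKM (0.70 on the log2 scale) and nwk, a regulator of synaptic growth, from 2.22 to 3.68 (0.54). Arl8, a small GTPase of axonal transport, fell by 0.31 (-0.49 after rescaling) and unc-104, the kinesin that carries vesicle precursors, by 0.23 (-0.41). Of 20 vesicle fusion and recycling genes 6 rose and 3 fell (median 0.01, and -0.13 after rescaling, when 3 rose and 10 fell). Snap25, the SNARE partner of Syx1A and nSyb, went from 3.87 ± 0.116 FPKM in control to 7.93 ± 0.124 with NAT10 RNAi and 3.48 ± 0.218 with both constructs, a log2 fold change of 0.88 with NAT10 RNAi (limma adjusted p = 3.21e-07). The complexin gene cpx, a clamp on SNARE fusion, rose by 0.48 (0.30 after rescaling). The clathrin adaptor gene lap, of vesicle retrieval, and Syt4, a postsynaptic synaptotagmin, fell by 0.47 and 0.33 (Syt4 -0.52 after rescaling). With both constructs 3 of the 13 active zone genes rose and 4 fell (median -0.07), and 3 of the 20 vesicle genes rose and 7 fell (median -0.07). Of all genes tested 47.3% were higher and 18.9% lower with NAT10 RNAi (31.9% and 31.5% after rescaling), and 21.5% were higher and 19.2% lower with both constructs. The list counts are to be read against these shares.

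Genes of neuronal identity and RNA binding were lower more often than higher. Of 17 tested, 1 rose and 10 fell with NAT10 RNAi (median -0.16, and -0.33 after rescaling, when 14 fell, beside 31.5% of all genes). With both constructs 1 rose and 11 fell (median -0.25), beside 21.5% and 19.2% of all genes. Relatives of elav differed from each other: fne fell from 40.0 ± 1.38 FPKM in control to 25.5 ± 0.271 and 28.2 ± 1.63 in the RNAi genotypes (log2 fold changes -0.63 and -0.49), while Rbp9 rose from 31.2 ± 0.816 to 50.2 ± 0.969 and 39.1 ± 1.81 (0.67 and 0.31). The transcription factor nerfin-1, which acts in young neurons, fell by 0.72 with NAT10 RNAi and by 0.60 with both constructs. Of 28 axon cytoskeleton and adhesion genes 9 rose and 10 fell with NAT10 RNAi (median -0.04, and -0.19 after rescaling, when 1 rose and 16 fell). The guidance receptor fra fell by 0.57 and the teneurin Ten-a by 0.49, whereas Ten-m rose by 0.33 (0.14 after rescaling) and Nrg, an adhesion protein of axons, by 0.30, the last no longer called after rescaling (0.10, limma adjusted p = 0.0903). With both constructs 2 of these 28 genes rose and 10 fell (median -0.09).

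Among 17 neuronal ion channel genes 8 rose and 2 fell with NAT10 RNAi (median 0.13, and -0.01 after rescaling, when 5 rose and 4 fell). With both constructs none rose and 3 fell, beside 21.5% and 19.2% of all genes. The sodium channel gene para and the calcium channel gene Ca-alpha1D each rose by 0.41 (0.23 and 0.27 after rescaling), and Ih fell by 0.34 (-0.52). KCNQ was at -0.21 (-0.37 after rescaling), and its call on the deposited scale was lost without replicate 1 of control (limma adjusted p = 0.0615) or of NAT10 RNAi (0.0659). Of 10 genes of transmitter synthesis and transport 4 rose and 3 fell (median 0.00, and -0.12 after rescaling, when 3 rose and 5 fell). Gad1, which makes GABA, rose by 0.59 and Tbh, which makes octopamine, by 0.50. The genes of dopamine synthesis ple and Ddc, which also serve the tanning of cuticle, fell most: ple went from 130.8 FPKM in control to 10.1 with NAT10 RNAi and 139.7 with both constructs, and Ddc from 42.7 to 9.96 and 42.7. With both constructs 2 of these 10 genes rose and 2 fell.

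Of 16 transmitter receptor genes 6 rose and 1 fell with NAT10 RNAi (median 0.14, and -0.02 after rescaling, when 2 rose and 2 fell). The 7 calls were 4 without control replicate 2 or control replicate 3. The acetylcholine receptor gene nAChRbeta3 rose by 1.64 but shares 1532 exon bases with Ets21C on the opposite strand, mAChR-A rose by 0.50 and nAChRalpha1 fell by 0.22 (-0.35 after rescaling). Of 6 glutamate receptor genes of muscle, the partner of these nerve endings, 3 rose and 1 fell (median 0.15, and 0.02 after rescaling, when 2 rose and 1 fell), with GluRIIC and Neto up by 0.96 and 0.56 and GluRIIB down by 0.30 on the log2 scale. Of 19 neuropeptide and processing genes 8 rose and none fell (median 0.18, and 0.01 after rescaling, when 3 rose and 3 fell), and the 8 calls were 5 without NAT10 RNAi replicate 1. Hug rose by 0.54. NPF had the same value, but its call was lost after rescaling (0.41, limma adjusted p = 0.103), without replicate 1 or 3 of control, without any 1 replicate of NAT10 RNAi, and without replicate 3 with both constructs (limma adjusted p = 0.0572 to 0.147 without 1 library). With both constructs 2 of the 16 transmitter receptor genes rose and 4 fell. Of the 6 muscle receptor genes 3 rose and 2 fell, and of the 19 neuropeptide genes 5 rose and 3 fell.

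**Figure D3:**
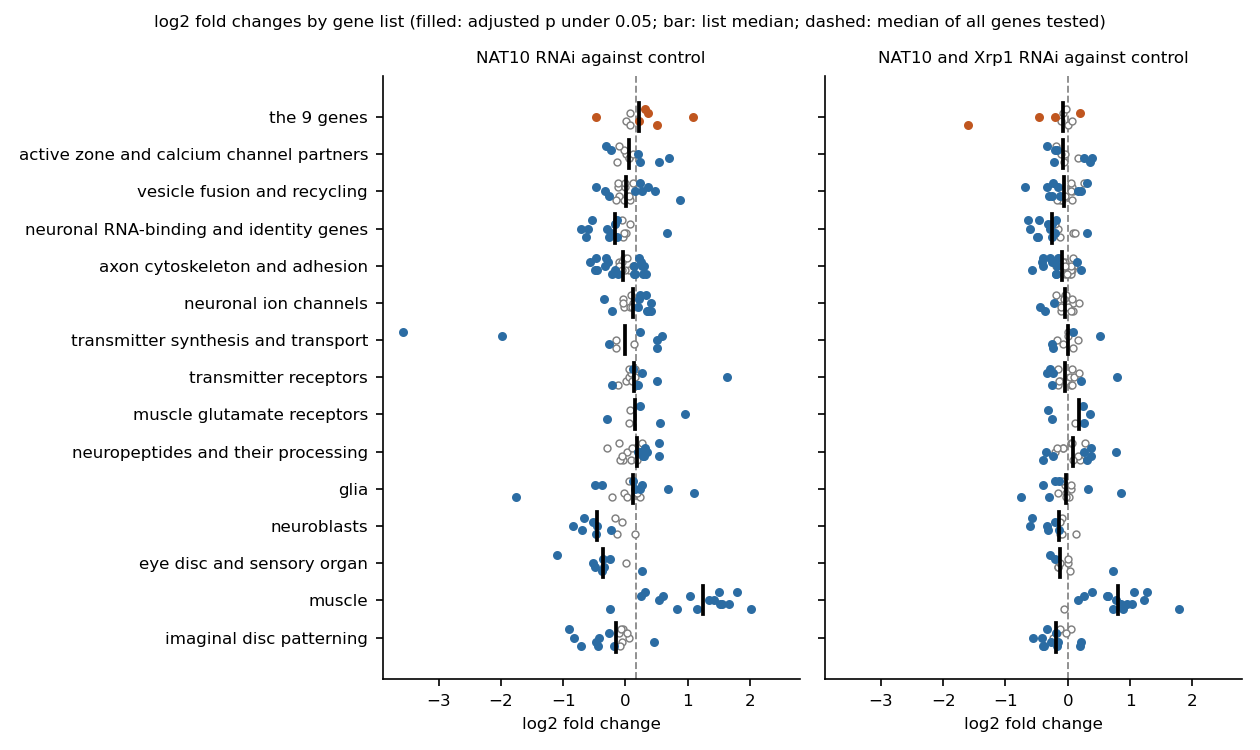
log2 fold changes (horizontal axis) of single genes, by list, with NAT10 RNAi (left) and both constructs (right) against control; filled points have an adjusted p under 0.05, black bars are list medians and the dashed line is the median of all genes tested. On the left the median of the 9 genes is 0.22 and those of the other neuronal lists lie between -0.16 and 0.18, while muscle lies at 1.25 and neuroblasts at -0.46.

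Markers of other cells moved as well. Of 16 muscle genes 15 rose and 1 fell with NAT10 RNAi (median 1.25, and 1.05 after rescaling), with Mhc, the muscle myosin heavy chain gene, at 2.02, Unc-89, which encodes obscurin, at 1.79 and TpnC73F, a troponin C gene, at -0.25 (-0.45 after rescaling). With both constructs 15 rose (median 0.81), beside 21.5% of all genes. The summed level of 10 muscle markers was 4103 to 4188 FPKM in control, 10827 to 11008 with NAT10 RNAi and 7973 to 8150 with both constructs. That of 10 neuron markers, 4 of them among the 9 genes, was 232 to 234.1 FPKM in control, 220 to 225.1 with NAT10 RNAi and 170.8 to 180 with both constructs. This sum includes brp, whose own mean was 37.1 FPKM in control, 53.2 with NAT10 RNAi and 11.5 with both constructs. With NAT10 RNAi the sum was thus lower although brp was higher, and with both constructs the sum and brp were both lower. The sum is no measure of neuron content. For 7 glia markers the sums were 50.6 to 52.8, 60.0 to 61.4 and 48.8 to 52.8 FPKM. None of these markers was at 0 in any genotype. The part of a changed mix of tissues in the levels above was not tested.

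Of 16 glia genes 6 rose and 3 fell with NAT10 RNAi (median 0.12, and -0.04 after rescaling, when 2 rose and 6 fell). The barrier receptor gene moody rose by 0.69 and bdl by 1.10, and loco fell by 0.49 and Gs2, a glutamine synthetase gene, by 1.75. Genes listed for neuroblasts, the stem cells that give rise to neurons, were lower more often than higher. Of 11 none rose and 7 fell with NAT10 RNAi (median -0.46, and -0.61 after rescaling, when 9 fell), with ase and wor down by 0.84 and 0.69 on the log2 scale. The other 4 (dpn, insc, stg and cas) were not called before rescaling. With both constructs none rose and 6 fell (median -0.14). Summed over 5 neuroblast markers the level was 9.47 to 9.70 FPKM in control, 5.30 to 5.69 with NAT10 RNAi and 6.13 to 7.78 with both constructs. Of 9 eye disc and sensory organ genes 1 rose and 7 fell with NAT10 RNAi (median -0.36, and -0.50 after rescaling, when none rose and 7 fell), with rho at -1.10 and sev at -0.52. The rise was that of sens, at 0.27, which was not called after rescaling (0.11, limma adjusted p = 0.311), nor without control replicate 3 (0.116) or NAT10 RNAi replicate 2 or 3 (0.0715 and 0.105), nor by edgeR with TMM (adjusted p = 0.218) or DESeq2 (adjusted p = 0.367). Of 16 imaginal disc patterning genes 1 rose and 8 fell (median -0.14, and -0.33 after rescaling, when 1 rose and 14 fell), with dpp up by 0.46 (0.28 after rescaling) and Ubx and hth down by 0.90 and 0.82. With both constructs 2 of the 16 glia genes rose and 5 fell, and 1 of the 9 eye disc and sensory organ genes rose and 2 fell. Of the 16 patterning genes 2 rose and 9 fell. Of the 51 genes named beside the 9 by fixed rules, 15 share exon bases with another gene.

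The ac4C capture was read from the authors' peak lists, of which there is 1 per genotype and so no spread between replicates. A peak was tied to a gene when it overlapped the gene on the same strand by at least 1 base. By that rule 82.5% of genes had a peak in the control list, 81.3% in the NAT10 RNAi list and 80.6% in the list for both constructs. Of the 9 genes 8, 9 and 9 had one, nSyb being without a peak in control. In all, 56, 68 and 61 peaks lay in the 9 genes, every one of them touching an exon. Most of their exon bases were in coding sequence for 27, 28 and 19 of these peaks, in 3' untranslated regions for 21, 34 and 34, and in 5' untranslated regions for 8, 6 and 8. The authors' fold enrichment had a median of 2.06, 1.98 and 1.92 in the 9 genes, beside 2.22, 2.07 and 2.18 over the 31666, 31192 and 30887 peaks of the whole lists. Of the control peaks in the 9 genes 51.8% overlapped a peak in both other lists, beside 58.9% of all control peaks.

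In brp, 13 peaks were listed in control, 13 with NAT10 RNAi and 9 with both constructs. Of these 6, 7 and 7 lay in the 3' untranslated region of the last exon (2R:9537139-9541565, 4427 bases). The peak near its end was listed in every genotype, at 2R:9540964-9541175 with a fold enrichment of 2.91 in control and 3.35 with both constructs, and at 2R:9540934-9541175 with 7.46 with NAT10 RNAi. In unc-13 there were 7, 11 and 7 peaks, of which 1 in each list (near 4:883266-884054, in coding exons) was common to all 3. In cac there were 4, 4 and 3, and 2 of each list were common to all. Peaks recurred more in Syx1A, where 4 of 5 control peaks were in all 3 lists, and futsch, where 7 of 10 were. The input level of unc-13 was 2.41-fold higher with NAT10 RNAi than in control, and that of brp was lowest with both constructs. The part of transcript level in these numbers of peaks was not tested.

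**Figure D4:**
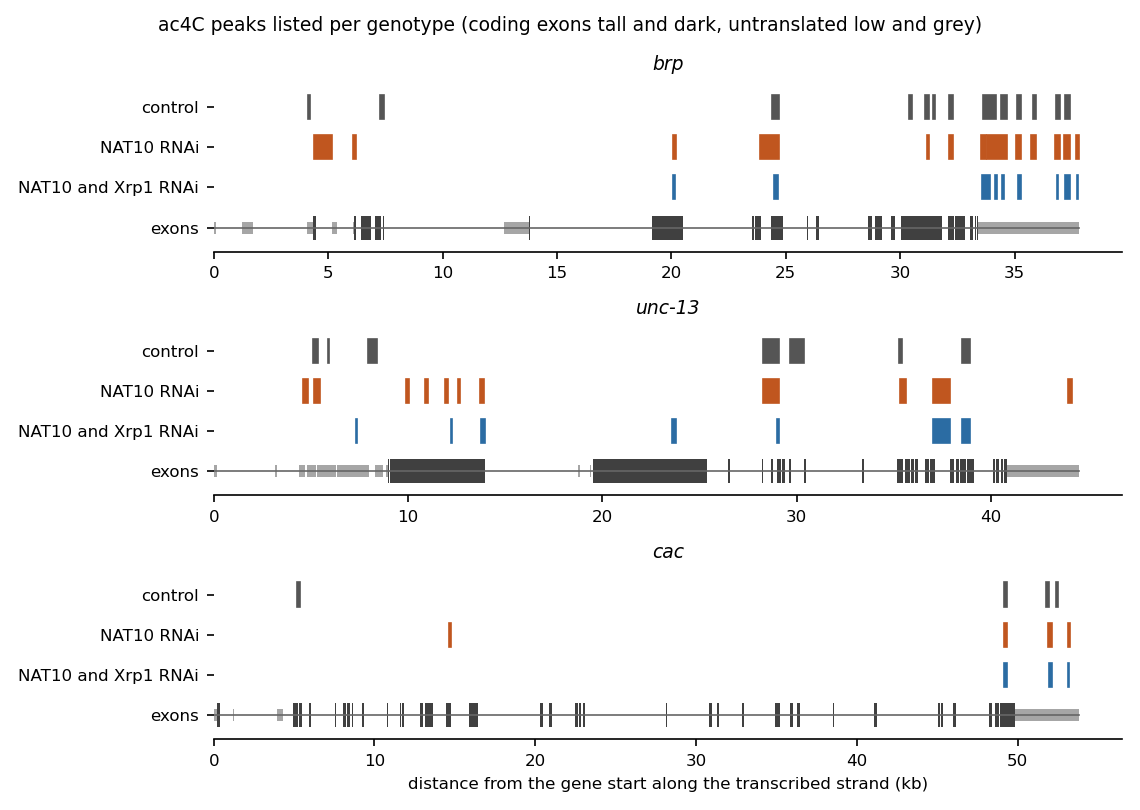
ac4C peaks (coloured blocks) of brp, unc-13 and cac in the list of each genotype, by distance from the gene start along the transcribed strand in kb. Exons are at the bottom of each panel, and a block that crosses an intron covers the exons on both sides. The brp peaks crowd in the long last exon in all 3 lists, while unc-13 has 4 more peaks with NAT10 RNAi (11) than in control (7). The input level of unc-13 was also 2.41-fold higher there, and its part in the number of peaks was not tested.

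The authors' deposited differential tables list selected peaks only, 1336 for NAT10 RNAi and 1316 for both constructs against control, of which 12.4% and 15.5% had an FDR under 0.05 in those tables. Peaks of the first table lay in 1150 genes and those of the second in 1102, beside 12301 genes in the expression table. The smallest change listed in either was 1.0 on the log2 scale, so peaks that moved less are absent. Of the 9 genes, brp, unc-13, cac and futsch had 7 peaks in the first table. An FDR under 0.05 was given for 3 of these, of which 2 overlap each other in brp. In the second table cac and Rim had 2 peaks, 1 of them with an FDR under 0.05.

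The unc-13 peak at 4:907476-907725 lay mostly in the 5' untranslated region. Its input reads were 32, 37 and 27 in control and 51, 69 and 52 with NAT10 RNAi, and its IP reads were 51, 51 and 50 in control and 205, 238 and 219 with NAT10 RNAi. Every NAT10 RNAi library held more reads than every control library in both kinds. Reads in the IP per read in the input were 1.59, 1.38 and 1.85 in control and 4.02, 3.45 and 4.21 with NAT10 RNAi. These ratios are of unscaled reads and move with the depth of the IP and input libraries, and IP depth was not used here. The authors' deposited table gives a log2 change of 1.48 (FDR 2.71e-05) for the enrichment, upwards in the genotype labelled NAT10 RNAi. The same stretch holds the pseudogene CR43361 on the opposite strand, whose part was not tested.

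Near the end of the brp transcript the larger of 2 overlapping listed peaks, 2R:9540934-9541175, had 74, 57 and 68 input reads in control and 31, 51 and 26 with NAT10 RNAi. Its IP reads were 351, 319 and 389 in control and 328, 305 and 369 with NAT10 RNAi. The input was thus lower with NAT10 RNAi while the IP overlapped control, in unscaled reads and without use of IP depth. The authors' deposited table gives a log2 change in enrichment of 1.05 (FDR 0.00529), and of 1.14 (FDR 0.00239) for the smaller peak within it. In RPM, the reads of a peak scaled to those in genes of its library, the input of this stretch went from 3.65 ± 0.601 in control to 1.78 ± 0.331 with NAT10 RNAi (SD, n = 3), while the FPKM of brp was 1.43-fold higher. The span listed with that FPKM ends at 2R:9537475, before this stretch, although its listed length of 13350 bases is near the 13371 annotated exon bases. Whether the FPKM includes reads of this stretch is not settled. The difference between the 2 was not tested.

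A peak in the 3' untranslated region of cac, X:11932567-11932688, was listed in control and overlapped no peak of the other lists. It had 60, 53 and 27 IP reads in control, 7, 5 and 15 with NAT10 RNAi, and 4, 5 and 6 with both constructs, on 3 to 5 input reads in every library. Control IP libraries held more reads of it than all others, and the inputs did not differ by more than those few reads. These are unscaled reads that move with the depth of each library, and IP depth was not used here. The authors' deposited tables give a log2 change of -3.00 (FDR 0.0224) with both constructs and of -1.73 (FDR 0.392) with NAT10 RNAi. The remaining listed peaks, in brp, futsch, cac and Rim, had an FDR of 0.229 to 0.384 in those tables, and their inputs held at most 20 reads in any library.

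**Figure D5:**
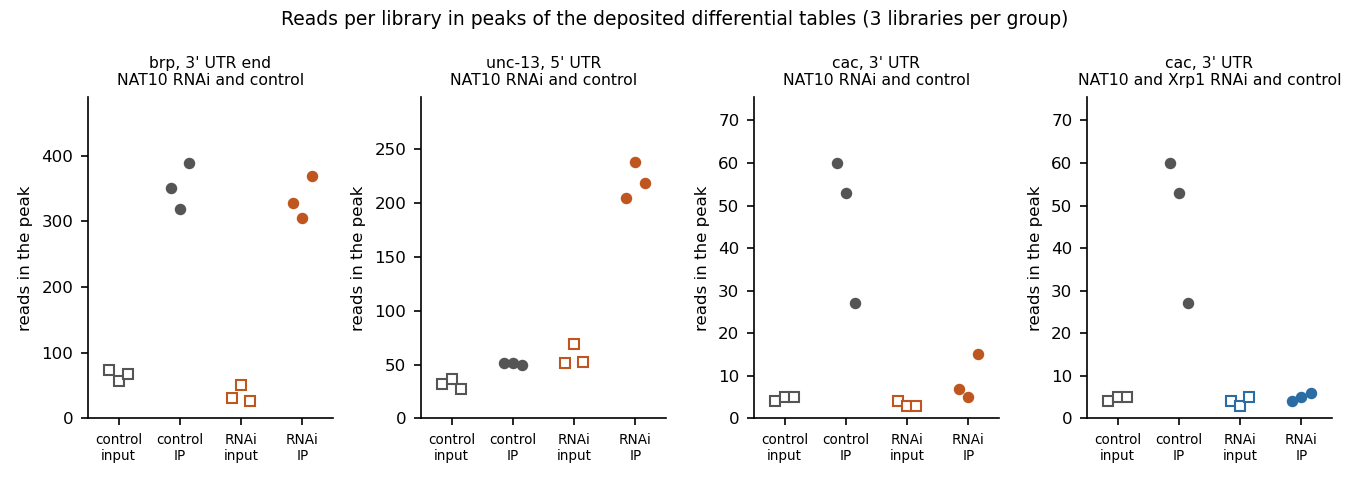
Unscaled reads per library (vertical axis starting at 0) in the input (open squares) and IP (filled circles) for peaks of brp, unc-13 and cac, with 3 libraries per group. IP reads of the unc-13 peak are 50 to 51 in control and 205 to 238 with NAT10 RNAi, and those of the cac peak are 27 to 60 in control and 4 to 6 with both constructs.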

How the data were processed

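The members and gene lists were chosen with earlier results of these data known, and they describe rather than test. The submitters' processing notes name the build BDGP6, HOMER 4.9.1, STAR 2.7.6a, deepTools 3.5.1, fastp 0.23.1, bedtools 2.30.0 and featureCounts (Subread 1.5.1). How peaks were called, how they and genes were compared, whether counting used strand, and how molecular identifiers were handled is not given in the sources used here. The authors' expression table holds FPKM per gene and library, per the file headers, and the authors' tables of differential genes hold log2 fold changes with p-values and FDR. The deposited peak lists hold the authors' fold enrichment with p-values, and the differential peak tables hold read counts per library. FPKM times gene length gave whole reads for 100% of values within 0.1 of a read, and hence the depths.

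Differences in level come from limma 3.58.1 (R 4.3.3), with its trend and robust options, on log2(FPKM + 1), for genes with at least 1 FPKM in at least 3 input libraries, with all 9 in 1 fit, two-sided, with Benjamini-Hochberg adjustment over all 11557 genes and a threshold of 0.05. This scale understates the change of low genes. The fit was also run on simulated data without the general upward shift seen here, so that run does not check it for these data. Rescaling divided each library by its median ratio to the geometric mean over libraries (factors 0.922 to 1.10). Alternatives included edgeR 4.0.16 and DESeq2 1.42.0 on the recovered reads, other pseudocounts and filters, a replicate block and leaving out each library. Genes and peak features follow the Ensembl annotation of BDGP6, in which 12242 of the 12301 listed IDs were found, 90.5% with the same span. The listed spans of brp and futsch end before the annotated genes, so peaks were placed with the annotation. Named genes were the 9, both targets, up to 2 called genes in each direction per list, and the 5 most alike in profile. Sequences are not shown, since no genome was used here.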

Additional observations from a re-analysis of the deposited data

How the results depend on the processing

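Over 20 alternatives, members called numbered 5 to 7 (NAT10 RNAi against control), 4 to 5 (both constructs against control) and 5 to 7 (both constructs against NAT10 RNAi), and genes called 5625 to 8030, 3843 to 5141 and 5281 to 7440. On the recovered reads edgeR with TMM called 7602, 5141 and 6764 genes and DESeq2 6824, 4229 and 5881. Leaving out 1 library gave 6 to 7, 4 to 5 and 5 members, and 7036 to 8030, 3843 to 4639 and 6316 to 7012 genes. Of 537 member values 498 kept direction and call, 4 lost a call and 15 gained one in the same direction. The other 20 changed sign, and of these 5 also gained a call and 3 lost one. brp, unc-13 and Syt1 kept direction and call in every alternative where called, as did elav against control. Apart from nSyb with both constructs against control, sign changes came under the alternatives that rescale libraries. In NAT10 RNAi against control, rescaling, edgeR with TMM and DESeq2 gave Rim -0.15, -0.17 and -0.18 (called by edgeR and DESeq2, adjusted p = 0.00299 and 0.00619), nSyb -0.12, -0.11 and -0.12 (called in all 3, adjusted p = 0.0374, 0.0304 and 0.0436), futsch -0.09, -0.09 and -0.11, and l(1)G0020 -0.07, -0.06 and -0.07. Between the RNAi genotypes the same 3 gave Rim 0.04, 0.02 and 0.04, nSyb 0.11, 0.10 and 0.11, and Syx1A 0.05, 0.03 and 0.05. For both constructs against control nSyb was 0.01 to 0.03 without replicate 1 of either group, and -0.03 to 0.03 over all libraries left out in turn. Of the 46 other named genes, 21 of 905 values lost a call and none changed sign. edgeR called Rim lower with both constructs (-0.14 with TMM and -0.13 without).

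Replicate numbers do not pair the libraries: deviations of same-numbered libraries correlated at -0.068 to 0.08. With the replicate block the call of sens was lost (limma adjusted p = 0.0546), members called were 6, 4 and 5 and genes called 7581, 4539 and 7016. Peaks of at least 5-fold enrichment left 3114, 2269 and 2915 genes with a peak in the control, NAT10 RNAi and combined lists. Gene spans of the deposited table, chosen after seeing the data because the lists name no genes, left 10139, 9994 and 9909, beside 10099, 9958 and 9872 with the annotation. The planned motif description and the planned use of gene names in the peak lists were not run. Depth limits the cac peak, which rests on 3 to 5 input reads, and counting error alone is large there.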
